A study of Bos taurus with 138 samples.

Results

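The genes described here were the cytoplasmic polyadenylation factors of bovine oocytes and preimplantation embryos, taken as a list of gene names. The group named 10 genes: the cytoplasmic polyadenylation element binding proteins CPEB1, CPEB2, CPEB3 and CPEB4, the translational repressor PATL2, the poly(A) polymerases PAPOLA and PAPOLG, the scaffold SYMPK, the cleavage and polyadenylation specificity factor subunit CPSF1, and the deadenylase PARN. Of these, 9 had a row among the 16706 gene symbols of the count table, and all 9 passed both filters on low counts. CPEB1 was not analysed here.

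The 6 groups were Bos taurus oocytes before meiosis resumes (germinal vesicle stage, GV), oocytes arrested in the second metaphase (MII), and embryos collected as 2-cell, 8-cell, morula or blastocyst. GV oocytes came from small follicles of slaughterhouse ovaries, MII oocytes from in vitro maturation, and embryos from fertilization and culture in vitro, with semen from a single Holstein bull. Cycloheximide, which halts ribosomes on mRNA, was given to all before collection, and the zona pellucida was removed. At each stage, lysates of pooled oocytes or embryos were spun through 2 sucrose gradients (A and B), each cut into 10 fractions (F1 to F10, top to bottom) that were sequenced separately, and 3 transcriptomes (A, B and C) were made from smaller pools of whole oocytes or embryos. F1 and F2 hold free RNA, F3 to F5 monosomes, F6 and F7 intermediate material and F8 to F10 polysomes. The study calls the gradients of a stage biological replicates and took the transcriptomes from the batches used for fractionation, but the sources used here tie no library to an animal or culture day, so p-values measure the spread between these libraries, which may share a batch. In pooled material, fewer cells with an mRNA and less of it per cell cannot be told apart, and because the library kit primes on poly(A) tails, neither can a change in mRNA amount and a change in tail length.

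In oocytes, many mRNAs are stored with short poly(A) tails and are not translated. CPEB proteins bind a U-rich element in the 3' untranslated region, together with repressors such as PATL2 and the deadenylase PARN. When meiosis resumes, CPEB is phosphorylated, and a complex built on CPSF and the scaffold symplekin (SYMPK) lengthens the tail through a poly(A) polymerase, after which the mRNA is translated. CPSF, symplekin and PAPOLA also act in the nucleus, where they cleave new transcripts and give them their first tail.

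The 120 fraction libraries held 1229382 to 17342859 counts (median 10334106), the 18 transcriptomes 3269386 to 11812567 (median 10399576), and the polysome pools, made by summing F8, F9 and F10 of a gradient, 22543737 to 39380638. The gradients of a stage were alike in GV oocytes, MII oocytes and 2-cell embryos, where the median correlation of a fraction in A with the same fraction in B was 0.952, 0.904 and 0.918. It was lower in 8-cell embryos, morulae and blastocysts (0.717, 0.722 and 0.811). In MII oocytes F10 of gradient B stood apart, with a median correlation of 0.655 with the other fraction libraries of its stage against 0.818 for the next lowest. In blastocysts F1 of gradient B, which enters no test here, did the same (0.577 against 0.734). Oocyte markers (8 of 8 found, ZP2, ZP3 and GDF9 among them) summed to 18990 to 22430 CPM (counts scaled to a common library size) in the GV transcriptomes and 34.4 to 155.6 CPM in those of blastocysts. Embryo markers (8 of 9 found, CDX2, KRT8 and GATA3 among them) summed to 43.0 to 51.3 CPM and 4759 to 5459 CPM. Markers of the cumulus cells that surround the oocyte (10 of 10 found) summed to 531.1 to 664.0 CPM in GV transcriptomes, where FSHR, FOXL2, TNFAIP6 and AMH were below 1 CPM. They summed to 469.4 to 576.1 CPM in MII oocytes, 356.5 to 401.5 CPM in 2-cell embryos and 28.7 to 35.5 CPM in morulae. The part of cumulus cells in the results was not tested.

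CPM values below are scaled by the trimmed mean of M values (TMM), are shares of a library and not amounts per embryo, and are compared between stages and fractions of a gene, not between genes. In the transcriptome, the highest stage mean exceeded the lowest by 91.5-fold for PAPOLG, 86.4-fold for PATL2, 10.3-fold for PARN and 9.40-fold for CPEB2. The spread was narrower for SYMPK (7.26-fold), CPSF1 (6.22-fold), CPEB4 (3.11-fold), CPEB3 (3.03-fold) and PAPOLA (2.42-fold). PAPOLG and PARN thus stood high in oocytes and 2-cell embryos and low from the 8-cell stage on, whereas CPEB3, CPEB4 and PAPOLA moved least.

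**Figure D1:**
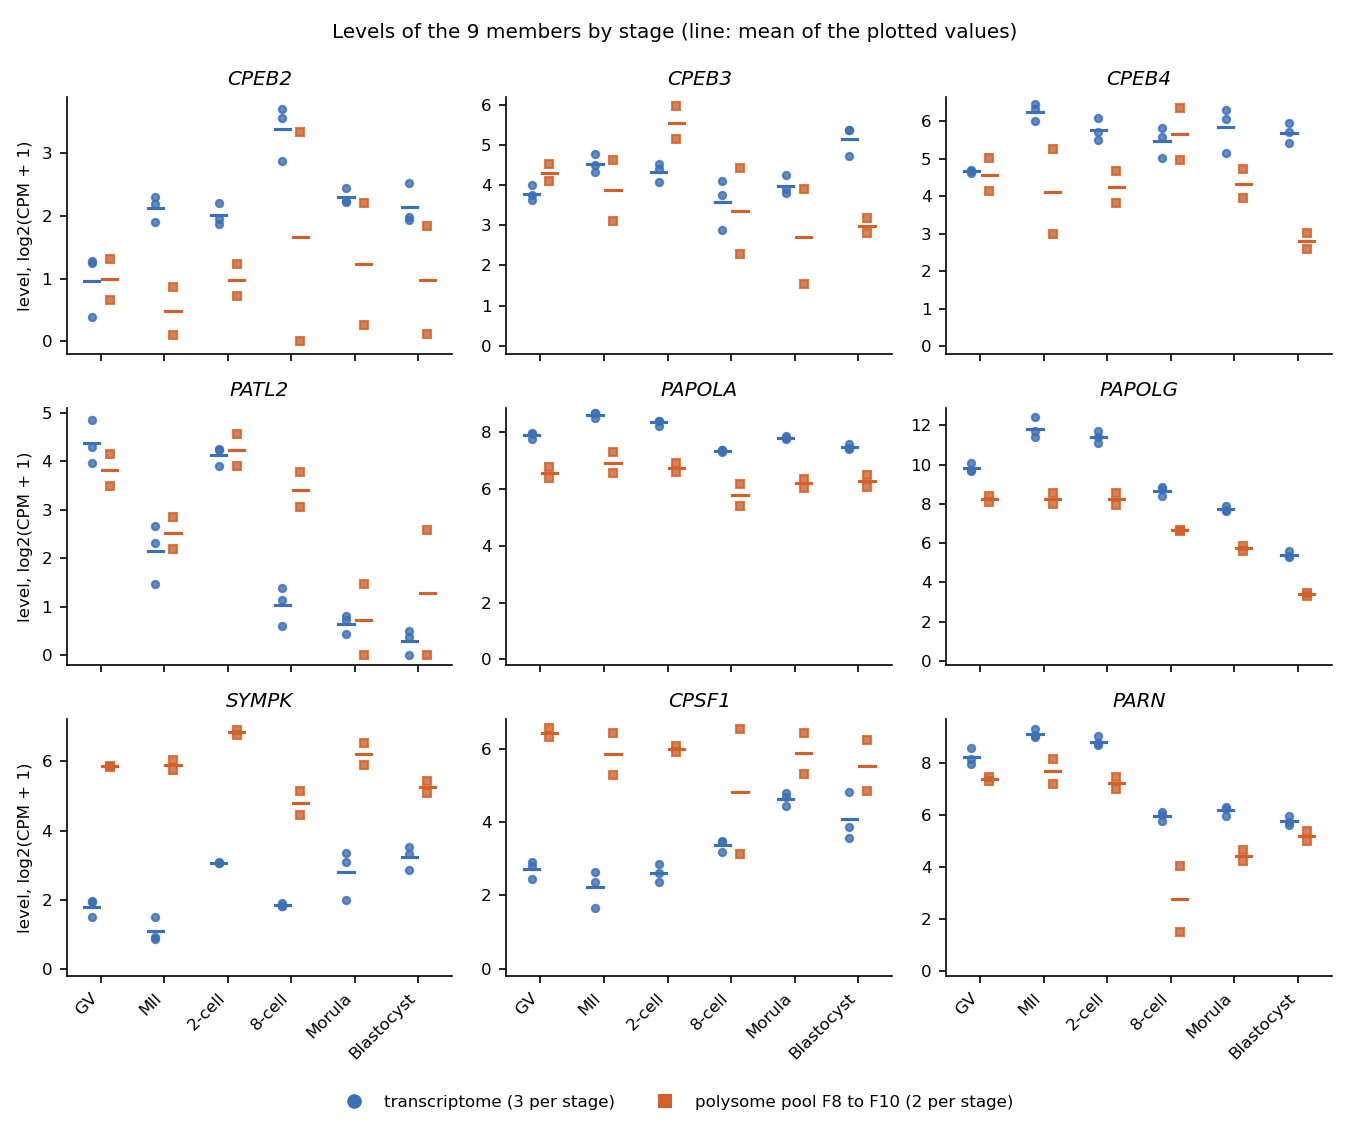
Levels of the 9 genes at the 6 stages, in log2(CPM + 1). Each point is 1 library or pool, with 3 transcriptomes and 2 polysome pools (F8 to F10) per stage, and a short line marks the mean of each group's plotted values. SYMPK pools lie above every SYMPK transcriptome at each stage, and PAPOLA and PAPOLG pools lie below.

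The first comparison set the polysome pools of each stage against its whole transcriptome. Pools came from gradient fractions and transcriptomes from whole oocytes or embryos, so a polysome difference and one of library type cannot be told apart. PAPOLG lay below all 3 transcriptomes of its stage in 118 of 120 fraction libraries and above in 1, SYMPK below in 23 and above in 94. Over 12929 genes the 90th percentiles were 116 below and 101 above. Higher or lower on polysomes below means relative to the transcriptome, not to other fractions. SYMPK was higher in the polysome pools at all 6 stages and CPSF1 at 4, PAPOLA and PAPOLG were lower at all 6, and PARN and CPEB4 were each lower at 4. With edgeR's quasi-likelihood test and Benjamini-Hochberg adjustment over 14612 genes, 4 of 9 genes differed in GV oocytes (2 higher, 2 lower), where 39.8% of all genes did. In MII oocytes 6 differed (2 higher, 4 lower) against 57.5% of all genes, and in 2-cell embryos 6 (2 higher, 4 lower) against 51.0%. In 8-cell embryos 6 differed (3 higher, 3 lower) against 59.1%, in morulae 5 (1 higher, 4 lower) against 51.7%, and in blastocysts 5 (1 higher, 4 lower) against 40.1%. The number of members that differed was therefore near the background at each stage. Their median log2 difference was -0.03, -1.38, -1.53, 0.06, -1.05 and -1.21 from GV to blastocyst, beside 0.0, 0.0, 0.18, -0.26, 0.0 and -0.08 over all genes.

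**Figure D2:**
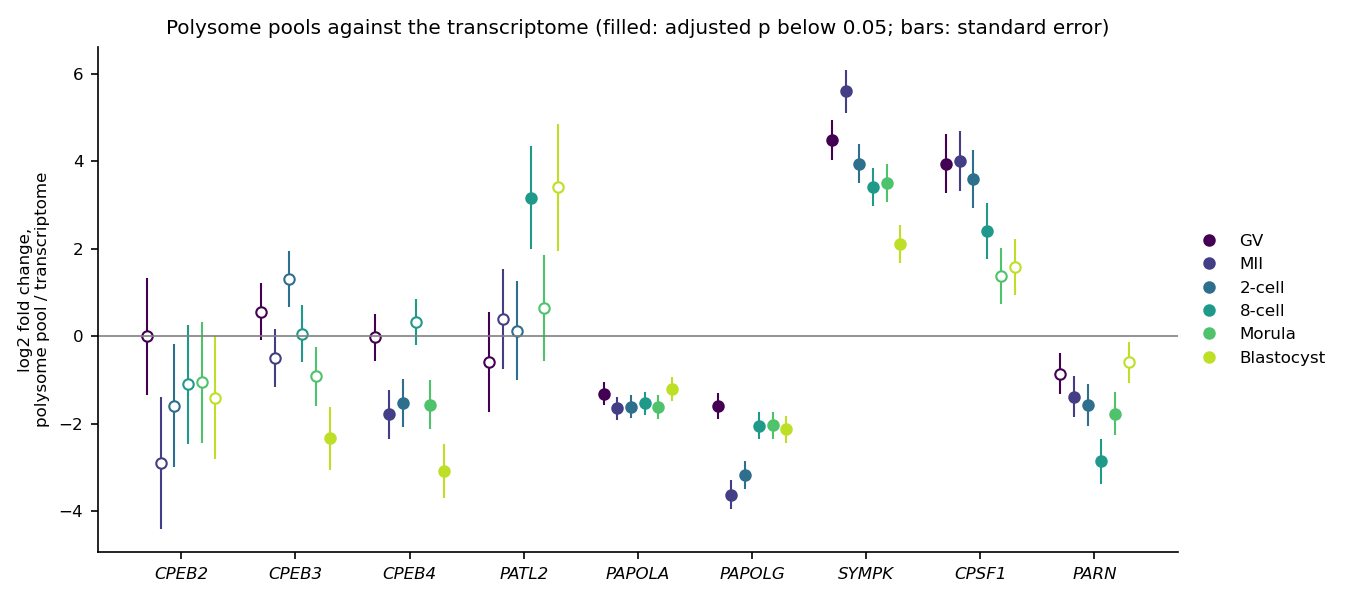
Difference between polysome pools and transcriptome for each gene and stage, as the log2 fold change with its standard error (2 pools against 3 transcriptomes), with filled points where the adjusted p was below 0.05. SYMPK runs from 5.60 in MII oocytes down to 2.11 in blastocysts, and PAPOLG from -1.60 in GV oocytes to -3.62 in MII oocytes.

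Of the CPE-binding proteins, CPEB4 differed most often. Its polysome pools (A and B) stood at 6.99 and 36.9 CPM in MII oocytes, where the transcriptomes (A, B and C) stood at 85.6, 78.3 and 62.3 CPM. In 2-cell embryos the pools were at 24.5 and 13.0 CPM and the transcriptomes at 43.6, 66.6 and 51.5 CPM. In morulae they were at 14.4 and 25.4 CPM beside 34.4, 65.1 and 77.1 CPM, and in blastocysts at 7.09 and 5.02 CPM beside 41.8, 60.1 and 51.6 CPM. At these 4 stages both pools lay below all 3 transcriptomes. The log2 difference was -1.78 ± 0.56 (SE) in MII oocytes (adjusted p = 0.00966), -1.53 ± 0.56 in 2-cell embryos (adjusted p = 0.0259), -1.57 ± 0.56 in morulae (adjusted p = 0.0226) and -3.08 ± 0.61 in blastocysts (adjusted p = 0.000286). The blastocyst difference passed in every alternative run, but the other calls rested on single pools: without pool A of MII the difference was -1.09 (adjusted p = 0.139), without pool B of 2-cell -1.15 (adjusted p = 0.210) and without pool A of morula -1.24 (adjusted p = 0.152). They were also lost without transcriptome B of 2-cell (adjusted p = 0.0736) or C of morula (adjusted p = 0.0692), and when only F9 and F10 were pooled (adjusted p = 0.0681, 0.0866 and 0.0634 in stage order). In GV oocytes and 8-cell embryos the groups overlapped (pools 31.1 and 16.5 CPM beside 23.5 to 25.0, and 80.4 and 30.2 CPM beside 31.5 to 54.7), with differences of -0.03 ± 0.53 and 0.32 ± 0.53.

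CPEB3, a close relative of CPEB4, was lower on polysomes in blastocysts, with pools at 8.01 and 5.97 CPM and transcriptomes at 25.3, 40.01 and 40.02 CPM (log2 difference -2.33 ± 0.72, adjusted p = 0.0124). The groups did not overlap. The difference kept its size but missed the threshold without pool A (-2.57, adjusted p = 0.0525), without pool B (-2.13, adjusted p = 0.0986) and with F9 and F10 alone (-2.35, adjusted p = 0.182). In GV oocytes (pools 16.1 and 21.8 CPM beside 12.5, 11.3 and 14.9) and 2-cell embryos (pools 61.2 and 34.3 CPM beside 15.8, 21.8 and 20.2) both CPEB3 pools lay above all 3 transcriptomes, with differences of 0.56 ± 0.65 (adjusted p = 0.526) and 1.31 ± 0.65 (adjusted p = 0.0924) that did not pass. It did not pass at the other 3 stages either, except in morulae without pool B (-3.00, adjusted p = 0.00648), where pool A had 1.90 CPM and pool B 13.9 CPM. CPEB2 stood at 0.308 to 12.01 CPM in the transcriptomes and at 0 to 9.03 CPM in the pools, and it passed no test in this model. In MII oocytes, 2-cell embryos, morulae and blastocysts both CPEB2 pools lay below all 3 transcriptomes. The CPEB2 difference passed in MII oocytes with DESeq2 (-3.11, adjusted p = 0.0302) and in blastocysts with F9 and F10 alone (-4.44, adjusted p = 0.0450). Its 8-cell pools held 0 counts in gradient A, which allows up to 3, and 333 in gradient B. Without pool B the 8-cell difference of CPEB2 was -10.4. The standard errors of its polysome to transcriptome differences were 1.34 to 1.51 on the log2 scale, so only very large differences could have been detected.

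PATL2, an oocyte RNA-binding protein that represses stored mRNAs, had low values and wide errors. Its transcriptomes stood at 27.9, 14.7 and 18.7 CPM in GV oocytes and its pools at 16.9 and 10.3 CPM. The 2-cell values were 17.8, 14.0 and 18.2 CPM beside 22.5 and 13.9 CPM, and the MII values 4.01, 5.37 and 1.78 CPM beside 3.57 and 6.22 CPM. At these 3 stages the groups overlapped, and none of the differences passed (-0.59 ± 1.15, 0.13 ± 1.13 and 0.39 ± 1.14). In 8-cell embryos the transcriptomes had 1.2, 1.61 and 0.522 CPM and the pools 12.7 and 7.35 CPM, and PATL2 was higher on polysomes (3.16 ± 1.18, adjusted p = 0.0248). That call was lost without pool A (adjusted p = 0.0711), transcriptome A (adjusted p = 0.0574) or transcriptome C (adjusted p = 0.0851). In blastocysts pool A held 0 counts and pool B 4.98 CPM, so the difference of 3.40 ± 1.44 (adjusted p = 0.0631) came from gradient B. There F8 had 15.0 CPM and F9 and F10 had 0. The difference passed with the likelihood ratio test (adjusted p = 0.0219) and DESeq2 (adjusted p = 0.0397), but was -4.82 with F9 and F10 alone.

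Both poly(A) polymerases were lower on polysomes at every stage. PAPOLA, the canonical nuclear enzyme, had transcriptome values of 215.7 to 248.5 CPM in GV oocytes, 356.3 to 406.9 in MII oocytes, 298.7 to 337.8 in 2-cell embryos, 157.4 to 163.0 in 8-cell embryos, 213.1 to 234.2 in morulae and 168.7 to 191.8 in blastocysts. The pools had 107.4 and 82.4, 93.1 and 155.6, 94.6 and 118.2, 70.5 and 41.0, 64.6 and 81.1, and 65.4 and 88.1 CPM. No pool reached the lowest transcriptome of its stage. The log2 difference of PAPOLA lay between -1.65 ± 0.27 in MII oocytes (adjusted p = 1.37e-05) and -1.21 ± 0.26 in blastocysts (adjusted p = 0.000818), and it passed at all 6 stages in every alternative run. PAPOLA may share reads with PAPOLB, an intronless relative, and how the quantification divided them was not tested.

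PAPOLG, a nuclear relative of PAPOLA, showed a larger difference that varied with stage. Its transcriptomes had 801.8, 1080 and 845.2 CPM in GV oocytes and its pools 268.2 and 331.5 CPM, a log2 difference of -1.60 ± 0.29 (adjusted p = 0.000118). In MII oocytes the transcriptomes had 2670, 3333 and 5429 CPM and the pools 371.3 and 249.4 CPM (-3.62 ± 0.33, adjusted p = 1.69e-09). In 2-cell embryos they had 3333, 2723 and 2197 CPM beside 370.8 and 245.6 CPM (-3.16 ± 0.32, adjusted p = 2.07e-08). PAPOLG was thus 3.03-fold lower on polysomes in GV oocytes, 12.3-fold in MII oocytes and 8.93-fold in 2-cell embryos. From the 8-cell stage it was about 4-fold lower: 337.9, 458.3 and 433.3 CPM beside 97.7 and 101.7 CPM in 8-cell embryos (-2.04 ± 0.30), 207.5, 199.6 and 238.2 beside 56.9 and 48.2 CPM in morulae (-2.03 ± 0.30), and 46.8, 40.01 and 38.2 beside 9.92 and 9.11 CPM in blastocysts (-2.13 ± 0.31). Adjusted p-values at these stages were 4.60e-06, 6.47e-06 and 6.80e-06, and the call held in every alternative at all 6 stages.

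SYMPK and CPSF1 lay on the other side. SYMPK transcriptomes had 2.89, 1.85 and 2.84 CPM in GV oocytes and its pools 57.2 and 56.3 CPM. In MII oocytes the values were 0.916, 1.83 and 0.833 CPM beside 52.6 and 64.3 CPM, and in 2-cell embryos 7.46, 7.35 and 7.37 CPM beside 108.3 and 119.3 CPM. SYMPK was 22.4-fold higher in the pools than in the transcriptome in GV oocytes (log2 4.49 ± 0.46, adjusted p = 4.01e-08), 48.4-fold in MII oocytes (5.60 ± 0.49, adjusted p = 9.14e-10) and 15.4-fold in 2-cell embryos (3.94 ± 0.44, adjusted p = 1.00e-07). The first pair of folds rests on few counts, with 38, 18 and 28 in the GV transcriptomes and 8, 18 and 7 in those of MII. Within the GV gradients SYMPK was higher still in F3 to F5, at 259.5 and 345.6 CPM beside 54.0 and 51.5 CPM in F8 to F10. In 8-cell embryos the transcriptomes had 2.74, 2.51 and 2.52 CPM and the pools 34.3 and 20.9 CPM (3.41 ± 0.44, adjusted p = 7.29e-07). In morulae they had 9.15, 7.51 and 3.02 CPM beside 58.9 and 90.7 CPM (3.51 ± 0.44, adjusted p = 6.79e-07). In blastocysts they had 9.11, 6.22 and 10.6 CPM beside 32.6 and 41.8 CPM (2.11 ± 0.43, adjusted p = 0.000387). No SYMPK transcriptome reached either pool of its stage. The blastocyst call was lost when only F9 and F10 were pooled (1.66, adjusted p = 0.0890), and those at the other 5 stages held in every alternative.

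CPSF1, the large subunit of CPSF, was 15.4-fold higher in the pools than in the transcriptome in GV oocytes (transcriptomes 5.92, 6.46 and 4.46 CPM, pools 79.5 and 93.3 CPM, log2 3.94 ± 0.67, adjusted p = 4.87e-05). Within the GV gradients CPSF1 was higher still in F3 to F5, at 266.1 and 325.3 CPM beside 75.4 and 82.7 CPM in F8 to F10. CPSF1 was 16.1-fold higher in the pools in MII oocytes, with 5.27, 4.16 and 2.14 CPM beside 38.3 and 86.0 CPM (4.01 ± 0.68, adjusted p = 2.27e-05). In 2-cell embryos it was 12.1-fold higher, with 6.31, 4.16 and 5.11 CPM beside 58.8 and 66.8 CPM (3.59 ± 0.66, adjusted p = 8.45e-05). The 8-cell gradients disagreed: pool A had 7.70 CPM and pool B 91.8 CPM beside transcriptomes of 9.98, 8.16 and 10.2 CPM, so the difference of 2.40 ± 0.64 (adjusted p = 0.00279) turned to -0.29 (adjusted p = 0.699) without pool B. In morulae (26.6, 24.8 and 20.6 CPM beside 86.1 and 38.7) and blastocysts (13.5, 27.0 and 10.9 CPM beside 74.8 and 27.6) the pools lay above all 3 transcriptomes, but the differences of 1.38 ± 0.63 (adjusted p = 0.0698) and 1.58 ± 0.64 (adjusted p = 0.0506) did not pass. The blastocyst difference passed with the likelihood ratio test (adjusted p = 0.0334), without the filter (adjusted p = 0.0420) and without transcriptome B (adjusted p = 0.0325). Without pool B the differences were 1.84 in morulae and 2.13 in blastocysts.

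PARN, which shortens poly(A) tails, was lower on polysomes at 4 stages. In MII oocytes its transcriptomes had 506.4, 531.7 and 615.8 CPM and its pools 143.4 and 281.3 CPM (log2 -1.38 ± 0.48, adjusted p = 0.0169). In 2-cell embryos they had 512.5, 429.4 and 403.3 CPM beside 174.8 and 126.9 CPM (-1.57 ± 0.48, adjusted p = 0.00883). The first call was lost without pool A of MII (-1.03, adjusted p = 0.164) and the second without pool B of 2-cell (-1.37, adjusted p = 0.0918). In 8-cell embryos PARN had 67.9, 53.5 and 63.2 CPM beside 15.3 and 1.82 CPM (-2.85 ± 0.52, adjusted p = 6.23e-05), and in morulae 73.0, 77.9 and 61.4 CPM beside 17.5 and 23.98 CPM (-1.77 ± 0.49, adjusted p = 0.00428), and these held in every alternative. In GV oocytes (246.6, 371.1 and 278.1 CPM beside 172.9 and 156.8) and blastocysts (47.6, 61.4 and 51.2 CPM beside 30.6 and 40.01) both pools again lay below the transcriptomes, with differences of -0.86 ± 0.47 (adjusted p = 0.149) and -0.60 ± 0.47 (adjusted p = 0.313) that did not pass.

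The second comparison followed each gene from stage to stage, and a change was called where the adjusted p was below 0.05 and the level moved more than 2-fold. In the transcriptome, 2 of 9 members rose from GV to MII (17.1% of all genes changed) and 1 rose from MII to 2-cell (12%). Between the 2-cell and 8-cell stages, around the time the bovine embryonic genome is activated, 5 fell and none rose (50.1%). A single gene rose from 8-cell to morula (14.4%), and 1 fell from morula to blastocyst (21.6%). The members' median log2 change at the 2-cell to 8-cell step was -1.01, beside 0.03 over all genes. In the polysome pools no member changed from GV to MII (5.37% of all genes did) or from MII to 2-cell (8.51%), 1 rose and 4 fell from 2-cell to 8-cell (46.3%), 1 rose from 8-cell to morula (36.2%) and 1 fell from morula to blastocyst (13.9%). For the first pair of steps edgeR's test gave 0 and 2 members with an unadjusted p below 0.05, and the likelihood ratio test and DESeq2 also called none.

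**Figure D3:**
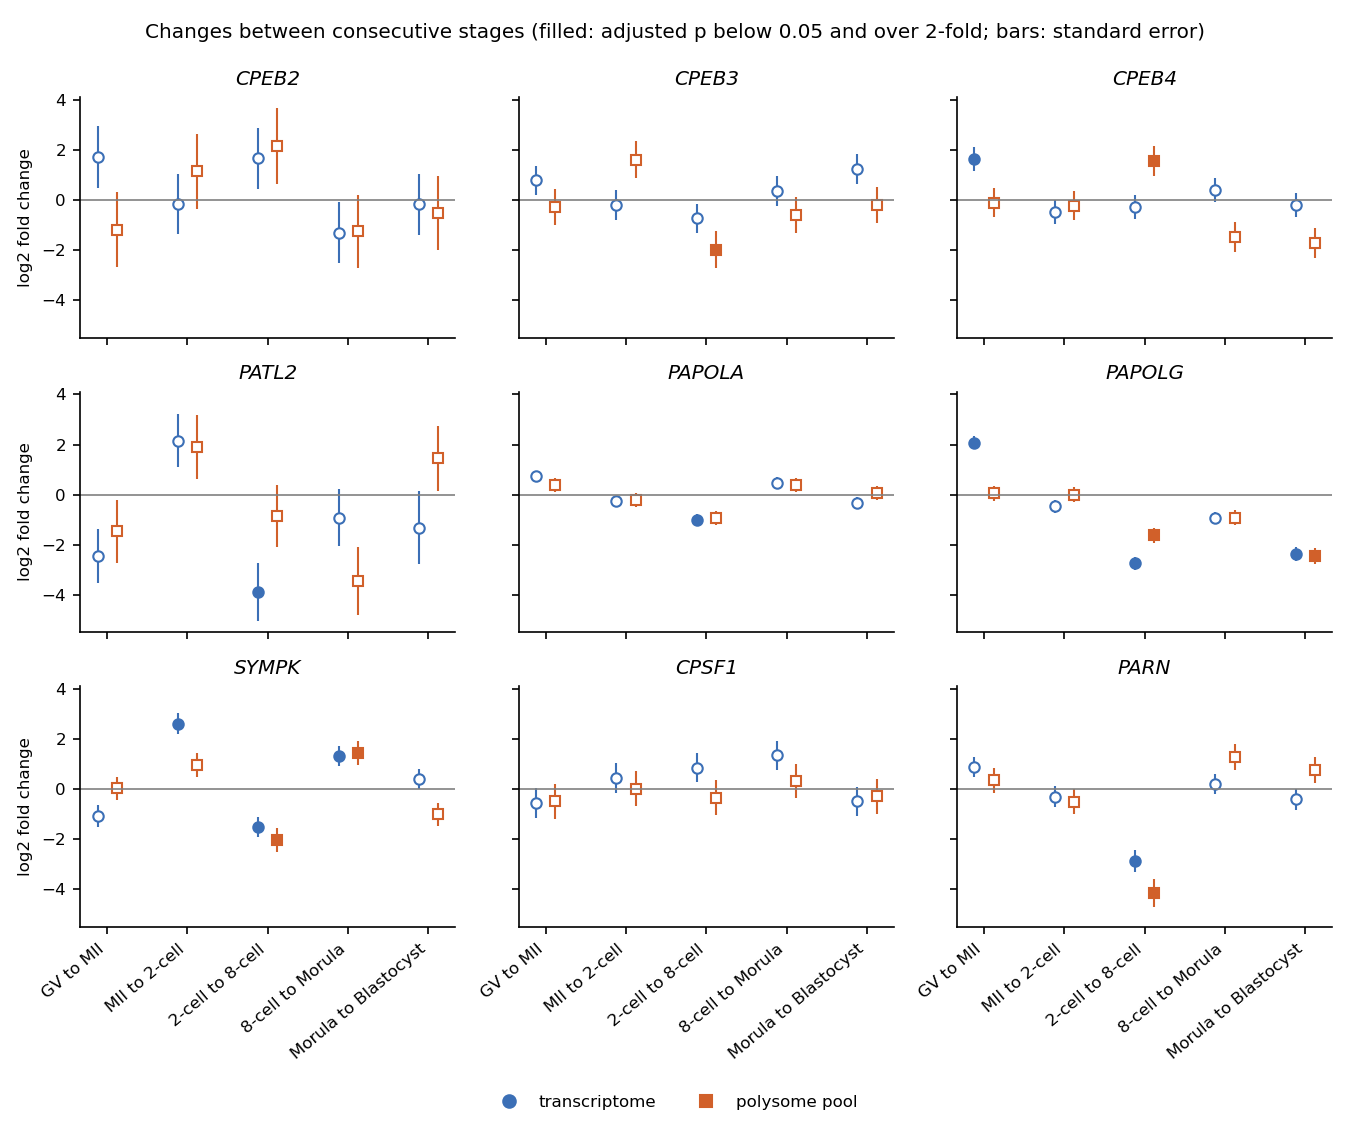
Log2 change of each gene between consecutive stages in the transcriptome and in the polysome pools, with standard errors and filled points for called changes. PAPOLG rose by 2.07 in the transcriptome from GV to MII while the pools moved by 0.05, and PARN fell by 4.15 in the pools from 2-cell to 8-cell.

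From GV to MII, PAPOLG rose 4.19-fold in the transcriptome (log2 2.07 ± 0.26, adjusted p = 2.13e-06) and all 3 MII libraries lay above all 3 GV libraries. Its pools moved by 0.05 ± 0.30 (adjusted p = 1.0). The difference between these changes, tested as an interaction, was -2.02 ± 0.40 (4.05-fold, adjusted p = 0.00141). It passed in every alternative run, from -1.68 to -2.35. PAPOLG was the only member with such an interaction at this step, where 10.6% of all genes had one. No member had one at the later steps, where 1.81%, 12.2%, 12.5% and 12.3% of all genes did, while 1, 2, 1 and 1 members had an unadjusted p below 0.05 there and neither the likelihood ratio test nor DESeq2 called any. From 2-cell to 8-cell the PAPOLG interaction had the opposite sign. There it passed without TMM (1.11, adjusted p = 0.0458) and without the filter (1.27, adjusted p = 0.0464). PAPOLA rose in the transcriptome from GV to MII by 0.73 ± 0.23 (adjusted p = 0.0260), under the 2-fold threshold.

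CPEB4 also rose from GV to MII in the transcriptome, from 23.5, 24.2 and 25.0 CPM to 85.6, 78.3 and 62.3 CPM (3.11-fold, log2 1.64 ± 0.49, adjusted p = 0.0187). Each MII value lay above all 3 of GV. The call was lost without TMM scaling (1.24, adjusted p = 0.0955) and without transcriptome A, B or C of GV or A of MII (adjusted p = 0.0686, 0.0590, 0.0582 and 0.0550). Its pools did not pass at this step (-0.12 ± 0.58). From MII to 2-cell, SYMPK rose 6.13-fold in the transcriptome (2.62 ± 0.43, adjusted p = 0.000168), with all 3 2-cell libraries above those of MII. The MII libraries held only 8, 18 and 7 SYMPK counts.

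At the 2-cell to 8-cell step PAPOLG, PARN, PATL2, SYMPK and PAPOLA fell in the transcriptome. PAPOLG fell by 2.75 ± 0.27 on the log2 scale (adjusted p = 1.05e-08) and PARN by 2.87 ± 0.44 (adjusted p = 8.52e-06). PATL2 fell by 3.90 ± 1.16 (adjusted p = 0.00701) and SYMPK by 1.51 ± 0.40 (adjusted p = 0.00301). For each, every 8-cell library lay below every 2-cell library. PAPOLA fell by 1.01 ± 0.23 (adjusted p = 0.000816), at the edge of the fold threshold, and came to 0.97 to 0.99 in size, just under 2-fold, without transcriptome B or C of 2-cell or B of 8-cell or with the transcriptomes modelled alone, where the adjusted p stayed at or below 0.00448. In the pools, PARN fell by 4.15 ± 0.57 (17.7-fold, adjusted p = 3.58e-06), SYMPK by 2.05 ± 0.48 (adjusted p = 0.00135) and PAPOLG by 1.63 ± 0.31 (adjusted p = 0.000199).

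CPEB3 fell on polysomes at that step, from 61.2 and 34.3 CPM to 3.86 and 20.3 CPM (-1.98 ± 0.74, adjusted p = 0.0315). The change was -1.50 without pool A of 2-cell (adjusted p = 0.177), -1.23 without pool A of 8-cell (adjusted p = 0.215), and did not pass with F9 and F10 alone (adjusted p = 0.284) or with the pools modelled alone (adjusted p = 0.243). CPEB4 moved the other way and rose on polysomes (1.56 ± 0.59, adjusted p = 0.0335), with both 8-cell pools above both 2-cell pools. Without pool A of 8-cell the change was 0.69 (adjusted p = 0.399), without pool B of 2-cell 1.18 (adjusted p = 0.225), and with the pools modelled alone 1.62 (adjusted p = 0.241).

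After the 8-cell stage SYMPK and PAPOLG passed. SYMPK rose into the morula in the transcriptome (1.34 ± 0.40, adjusted p = 0.0235) and in the pools (1.44 ± 0.47, adjusted p = 0.0193). The transcriptome call was lost without any 1 of 5 libraries (A, B or C of 8-cell, A or B of morula, adjusted p = 0.0573 to 0.139). The pool call was lost without pool B of 8-cell (adjusted p = 0.101) or of morula (adjusted p = 0.0939), without TMM (adjusted p = 0.0993) and with the pools alone (adjusted p = 0.0865). PAPOLG fell from morula to blastocyst by 2.37 ± 0.26 in the transcriptome (adjusted p = 7.79e-07) and by 2.46 ± 0.32 in the pools (adjusted p = 4.74e-05), with no overlap of the stages in either. With the pools alone the latter missed the threshold (adjusted p = 0.0508). CPSF1 and CPEB2 passed at no step in either kind of library in the main model, though both did in an alternative, as given below.

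Some changes near the threshold passed in an alternative only. In the pools from 8-cell to morula, CPEB4 (-1.47 ± 0.59, adjusted p = 0.0529) and PATL2 (-3.45 ± 1.37, adjusted p = 0.0506) passed with the likelihood ratio test (adjusted p = 0.0369 and 0.0218), DESeq2 (0.0223 and 0.00979), no TMM (0.0236 and 0.0393), the RLE size factors of DESeq2 (0.0412 and 0.0416) and F9 and F10 (0.0448 and 2.01e-05). PARN (1.28 ± 0.51, adjusted p = 0.0518) passed there with the likelihood ratio test (adjusted p = 0.0363). PAPOLG fell from 8-cell to morula, with the stages apart in both kinds of library, but was not called in the main model. It passed in the transcriptome with DESeq2 (-1.065, adjusted p = 0.00161), RLE size factors (-1.065, adjusted p = 0.00963) and no TMM (-1.01, adjusted p = 0.00402). In the pools PAPOLG passed at that step without TMM (-1.34, adjusted p = 0.000979). PAPOLA fell in the pools from 2-cell to 8-cell, with the stages apart, but was not called in the main model. It passed with DESeq2 (-1.07, adjusted p = 0.000209), RLE size factors (-1.07, adjusted p = 0.00380) and F9 and F10 (-1.24, adjusted p = 0.0150). From morula to blastocyst CPEB4 (-1.72 ± 0.60, adjusted p = 0.0563) passed with the likelihood ratio test (adjusted p = 0.0296) and DESeq2 (adjusted p = 0.03998). CPSF1 passed in the transcriptome from 8-cell to morula with the transcriptomes modelled alone (1.35, adjusted p = 0.00222). Without 8-cell pool B, whose CPSF1 level was far from that of pool A, it passed in the pools from 2-cell to 8-cell (-3.02, adjusted p = 0.00156) and from 8-cell to morula (3.01, adjusted p = 0.00203). With the transcriptomes alone PATL2 passed from GV to MII (-2.45, adjusted p = 3.89e-05) and from MII to 2-cell (2.14, adjusted p = 0.000281), and CPEB3 from morula to blastocyst (1.27, adjusted p = 0.00106). CPEB2 passed in that fit from GV to MII (1.69, adjusted p = 0.00401), from 2-cell to 8-cell (1.69, adjusted p = 0.000686) and from 8-cell to morula (-1.30, adjusted p = 0.0119).

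The third comparison looked along the gradient. Over the 120 fraction libraries, SYMPK was above all 3 transcriptomes of its stage in 94 and below all 3 in 23, and CPSF1 in 92 and 22. PAPOLA was above in 0 and below in 117, PAPOLG in 1 and 118, and CPEB4 and PARN each in 6 and 108. The median of 12929 genes was 39 above and 53 below, and the 90th percentiles were 101 above and 116 below. SYMPK, CPSF1, CPEB4 and PARN lay within these percentiles, and PAPOLA and PAPOLG just beyond the one below. The early stages carried the totals of SYMPK and CPSF1. SYMPK lay above in 20 of 20 libraries of GV oocytes and of 2-cell embryos, but in 9 (8 below) in blastocysts, and CPSF1 in 20 of 20 at both early stages, but in 11 (9 below) in morulae and 6 (9 below) in blastocysts. PAPOLA and PAPOLG lay below in at least 17 of 20 at each stage. CPEB3 was more even (48 above, 57 below), with 19 of 20 GV libraries above and 19 of 20 blastocyst libraries below. PATL2 had 43 above and 46 below and was at 0 in 36, and CPEB2 had 18 above and 90 below and was at 0 in 46.

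**Figure D4:**
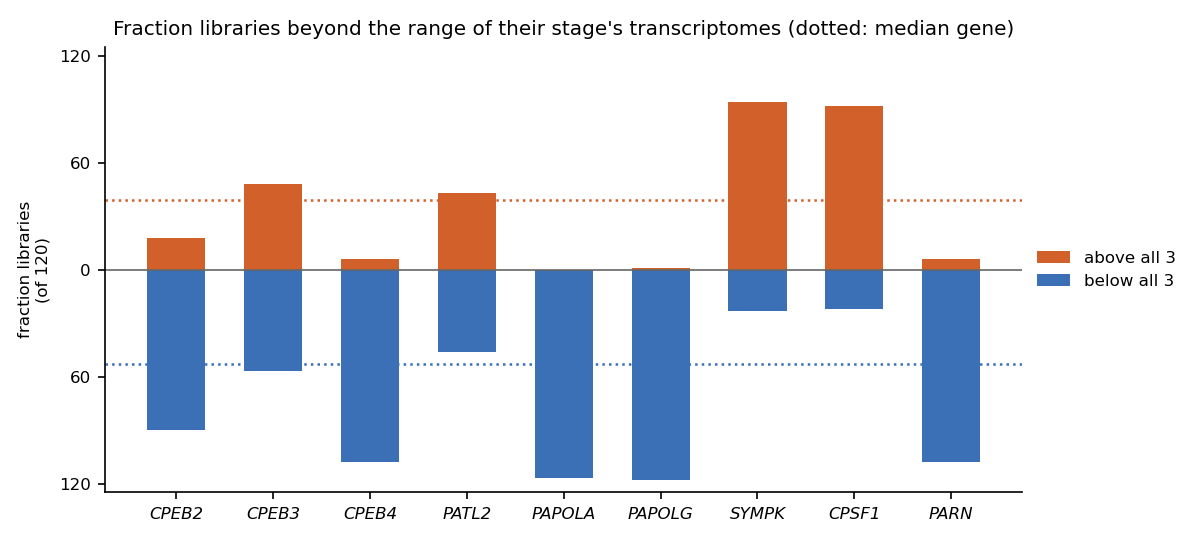
Number of the 120 fraction libraries in which each gene lay above or below all 3 transcriptomes of its stage, with dotted lines at the median gene (39 above, 53 below). SYMPK and CPSF1 have long bars above (94 and 92), and PAPOLG and PAPOLA long bars below (118 and 117). The 90th percentiles over all genes, not drawn, were 101 above and 116 below.

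In GV oocytes 4 members ran steadily along the gradient, in opposite directions. SYMPK went from a mean of 259.5 and 345.6 CPM in the monosome fractions F3 to F5 (gradients A and B) to 54.0 and 51.5 CPM in the polysome fractions F8 to F10, and CPSF1 from 266.1 and 325.3 CPM to 75.4 and 82.7 CPM. PARN went from 51.2 and 67.0 CPM to 163.6 and 145.3 CPM, and PAPOLA from 37.5 and 51.8 CPM to 101.6 and 75.7 CPM. Spearman's rho of the level with the fraction number over F3 to F10 of both gradients (16 libraries from 2 lysates, a description) was -0.911 for SYMPK, -0.894 for CPSF1, 0.905 for PARN and 0.888 for PAPOLA. In each gradient taken alone it had the same sign, from 0.786 to 0.952 in size. Of 12797 genes, 1.69% lay at least as far down as SYMPK and 2.34% as CPSF1, and 2.01% lay at least as far up as PARN and 2.88% as PAPOLA. SYMPK and CPSF1 were thus far above the transcriptome in every GV fraction and, within F3 to F10, highest on monosomes (CPSF1 was higher still in F1, at 411.0 and 695.7 CPM), and PARN and PAPOLA were below it in every GV fraction and highest on polysomes.

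**Figure D5:**
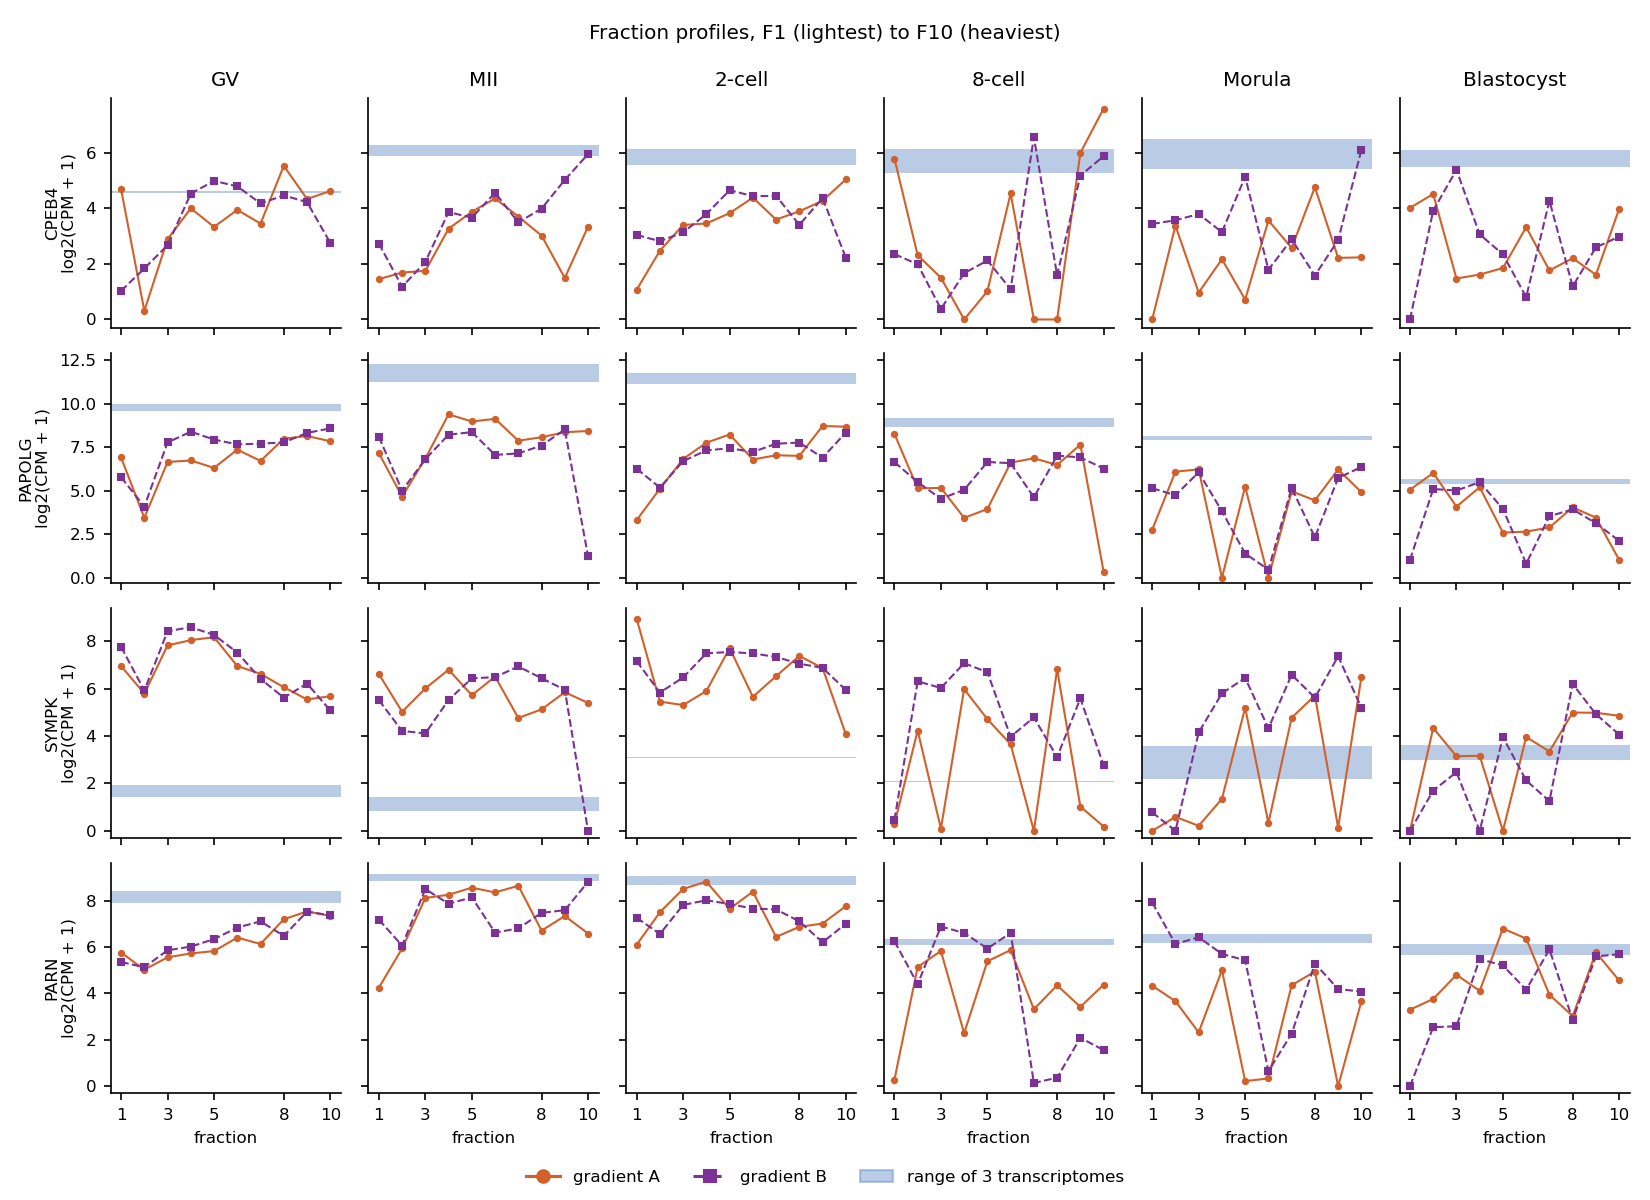
Levels of CPEB4, PAPOLG, SYMPK and PARN in fractions F1 to F10 at the 6 stages, in log2(CPM + 1), for gradient A (solid, circles) and gradient B (dashed, squares), with a band for the range of the 3 transcriptomes. In GV oocytes SYMPK is highest in F3 to F5 and PARN in F9 and F10, SYMPK staying above its band and PARN below it.

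The test of F8 to F10 against F3 to F5 within gradients (edgeR's quasi-likelihood test with the gradient as a block, 14873 genes) called few genes, with 2 gradients a stage. In GV oocytes it called no member and 0.269% of all genes. The differences were -2.58 ± 0.66 for SYMPK (adjusted p = 0.149) and -1.95 ± 0.79 for CPSF1 (adjusted p = 0.462), both with an unadjusted p below 0.05. It called no member in MII oocytes (0.202% of all genes), 2-cell embryos (0.0%), morulae (1.41%) or blastocysts (1.31%), with 0, 0, 0 and 2 members at an unadjusted p below 0.05. At these 5 stages the likelihood ratio test and DESeq2 each called 1 member in GV oocytes and 2 in blastocysts and none at the other 3.

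In 8-cell embryos CPEB4 alone was called, beside 8.74% of all genes, while 5 members had an unadjusted p below 0.05, the likelihood ratio test called 4 and DESeq2 6. PARN (-3.57 ± 1.11, adjusted p = 0.0711), CPSF1 (-2.25 ± 0.88, adjusted p = 0.129) and PAPOLG (1.42 ± 0.46, adjusted p = 0.0802) passed with the likelihood ratio test (adjusted p = 0.00691, 0.0432 and 0.0289) and with DESeq2 (adjusted p = 0.000219, 0.0104 and 0.0237). The mean level of CPEB4 was 0.951 and 1.94 CPM in F3 to F5 and 84.8 and 31.7 CPM in F8 to F10, a log2 difference of 4.92 ± 1.34 (adjusted p = 0.0477). The profile was uneven, since F7 held 0 CPM in gradient A and 93.6 in B, F8 held 0 and 2.01, F9 held 62.6 and 35.2, and F10 held 191.7 and 57.8. F10 of gradient A had the lowest median correlation with the other 8-cell fractions (0.546, next 0.587). Without gradient A the difference was 3.81 (adjusted p = 0.219) and without gradient B 6.04 (adjusted p = 0.0656). Over both gradients CPEB4 had a rho above 0 at all 6 stages (0.05 to 0.55) and CPEB3 below 0 at all 6 (-0.47 to -0.05), but the gradients of CPEB4 differed in sign at 5 stages, for example 0.762 in A and -0.190 in B of GV oocytes. Only at the 8-cell stage did both CPEB4 gradients have a rho above 0 (0.439 and 0.619), where 9.4% of genes lay at least as far up as the value over both. Those of CPEB3 differed in sign in 2-cell embryos (0.405 and -0.524).

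The direction along the gradient changed with stage for several members. SYMPK had a rho of -0.911 in GV oocytes and 0.696 in blastocysts, where its mean was 5.29 and 6.36 CPM in F3 to F5 and 29.8 and 39.2 CPM in F8 to F10, and the heavy against light difference there was 2.53 ± 0.66 (adjusted p = 0.1004). PARN had a rho of 0.905 in GV oocytes, -0.728 at the 2-cell and -0.604 at the 8-cell stage, and PAPOLG one of -0.604 in blastocysts. PATL2 reached -0.817 in MII oocytes (-0.881 and -0.857 in the gradients alone), where 3.14% of genes lay at least as far down. In F10 of MII gradient B, the library that stood apart, PARN had 447.9 CPM, CPEB4 60.8, PAPOLG 1.35 and SYMPK 0. With that pool made from F8 and F9 only, no member gained or lost a call in the polysome and transcriptome model, and the PAPOLG interaction was -1.89.

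Other genes of the pathway were counted on 3 lists. In the polysome to transcriptome comparison, 39.8%, 57.5%, 51.0%, 59.1%, 51.7% and 40.1% of all genes were called from GV to blastocyst, with medians of -0.26 to 0.18. Of the 16 nuclear cleavage and polyadenylation factors, 2, 3, 3, 3, 2 and 1 were higher and 8, 10, 10, 8, 9 and 11 lower on polysomes in the same order (median -1.68 to -1.01). CPSF4, a CPSF subunit that contacts the polyadenylation signal, was higher by 1.29 ± 0.34 in GV oocytes (adjusted p = 0.00393) and 3.67 ± 0.36 in 8-cell embryos (adjusted p = 1.14e-08), whereas CPSF3, the endonuclease of CPSF, was lower in morulae (-2.73 ± 0.38, adjusted p = 2.46e-06). NUDT21, which helps to choose the cleavage site, was lower in GV oocytes (-2.13 ± 0.26, adjusted p = 6.94e-07), as was the nuclear poly(A) binding protein PABPN1 (-2.07 ± 0.40, adjusted p = 0.000216). At the 2-cell to 8-cell step 4 of the 16 rose and 4 fell in the transcriptome (50.1% of all genes, list median 0.13 and all genes 0.03), RBBP6 by 6.35 ± 0.53 (adjusted p = 1.17e-09) and PABPN1 by 2.72 ± 0.35 (adjusted p = 8.52e-07) upward.

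Of 20 partners of CPEB and other cytoplasmic factors found (21 named), 7, 5, 5, 6, 3 and 1 were higher and 3, 4, 5, 5, 4 and 6 lower on polysomes (median -0.88 to 0.45). At the 2-cell to 8-cell step 2 rose and 10 fell in the transcriptome (50.1% of all genes, list median -1.43 and all genes 0.03) and 2 rose and 9 fell in the pools (46.3% of all genes, list median -1.44 and all genes -0.26). ZAR1, an oocyte RNA-binding protein, fell by 5.42 ± 0.74 in the transcriptome (adjusted p = 1.73e-06), and its relative ZAR1L by 4.49 ± 0.73 (adjusted p = 1.82e-05). TENT2, a cytoplasmic poly(A) polymerase, rose by 2.10 ± 0.27 (adjusted p = 9.78e-07), at the step where PAPOLG and PAPOLA fell. TENT2 was also lower on polysomes in MII oocytes (-3.02 ± 0.34, adjusted p = 4.87e-08), and its interaction from GV to MII was -1.88 ± 0.42 (adjusted p = 0.00427), with the same sign as that of PAPOLG.

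Of 15 mRNAs known as targets of cytoplasmic polyadenylation in vertebrate oocytes, 5 rose and none fell from GV to MII in the transcriptome (17.1% of all genes, list median 1.15 and all genes 0.0), while in the pools 1 rose and none fell (5.37% of all genes, list median 0.20 and all genes 0.0). TPX2, a spindle protein, rose by 1.41 ± 0.22 in the transcriptome (adjusted p = 5.13e-05) and had an interaction of -1.44 ± 0.35 (adjusted p = 0.00778). On polysomes 1, 2, 2, 3, 4 and 2 targets were higher and 7, 9, 8, 6, 5 and 7 lower than in the transcriptome (median -1.99 to 0.05). MOS, a kinase that keeps the MII oocyte arrested, was higher in GV oocytes (2.78 ± 0.60, adjusted p = 0.000700) and MII oocytes (2.47 ± 0.60, adjusted p = 0.00119). TPX2 was lower in both (-2.29 ± 0.27, adjusted p = 3.14e-07, and -3.73 ± 0.29, adjusted p = 1.50e-10).

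Likeness of profile was measured by Pearson's r of log2(CPM + 1) over 66 points (the means of 60 stage and fraction groups and 6 transcriptome groups) among 12891 genes, as a description with a pseudocount of 1. The points of a stage share lysates and library depth, and the order depends on the pseudocount: with 5 in place of 1, RAPH1 was 39th for CPEB3 and TOP3B 26th for SYMPK, and with 0.1 ENTPD5 was 6th for CPEB3. PATL2 was most like GALK2 (0.872) and CPN1 (0.848), SYMPK most like PNPLA6 (0.836) and TOP3B (0.792), PAPOLG most like MPHOSPH9 (0.832) and DYNC1I2 (0.828), CPSF1 most like XAB2 (0.829) and SNX19 (0.782), and PARN most like RAB3IP (0.819) and NETO1 (0.793). PAPOLA was most like GTF2A2 (0.763) and ZC3H8 (0.763), and CPEB3 most like ENTPD5 (0.722) and RAPH1 (0.719). Between members the highest values were 0.662 for SYMPK with CPSF1 and 0.636 for PAPOLG with PARN.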

How the data were processed

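Bovine oocytes and embryos were measured by RNA-seq of 120 sucrose fractions and 18 transcriptomes (138 libraries). Per the study's methods, libraries were made with the Smart-seq v4 and Nextera XT kits, read as 150-base pairs on a HiSeq X and quantified with Salmon. The submitters' notes name the UMD3.1 build and the methods ARS-UCD1.2, so the build is uncertain and no coordinates are given. The authors deposited the estimated counts that Salmon gave per gene symbol, not normalized, of which 11.65% of values were not whole, and these were rounded here. No column was left unmapped. No pair of libraries of 1 group was identical, and the lowest chi-square per degree of freedom of 78 pairs was 11.89.

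Counts of F8 to F10 were summed per gradient, giving 12 polysome pools, and fitted with the 18 transcriptomes in 1 model of 12 groups (30 libraries, 14612 genes after filterByExpr, TMM) with the quasi-likelihood F test of edgeR 4.0.16 (limma 3.58.1, R 4.3.3). Standard errors are the log2 fold change divided by the square root of F, and p-values are two-sided and Benjamini-Hochberg adjusted over all genes of the model. Heavy and light pools were tested with the gradient as a block (24 pools, 14873 genes). Profiles used TMM over all libraries and a pseudocount of 1. The study names edgeR's likelihood ratio test, which was run as an alternative, as were DESeq2 1.42.0, other scalings, no filter, other pools and leaving out each library. The alternative without F10 of MII gradient B was chosen after seeing the data. Scripts (Python 3.11.15, pandas 2.3.3, numpy 2.4.6, scipy 1.17.1) were tested on simulated data.

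The members were all described, and from each of 3 lists at most the 2 called genes with the largest change in each direction were eligible to be named in a comparison, without those at or near 0 in a group. The members and lists were chosen with earlier results of these data known. No sequence is shown. The likeness of profile of CPEB2 and CPEB4 is not reported here.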

Additional observations from a re-analysis of the deposited data

Results flagged for a closer look

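The change in the polysome to transcriptome difference of PAPOLG from GV to MII oocytes, -2.02 on the log2 scale, was picked out because the rise of the gene in the transcriptome and the change in its polysome pools differed by a test of the difference itself (edgeR's quasi-likelihood test, adjusted p = 0.00141). All 3 MII transcriptomes lay above all 3 GV transcriptomes, and the pools overlapped.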

How the results depend on the processing

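With 2 gradients a stage, a single pool decided many member calls, as given beside each result. Over all members and stages, 32 polysome to transcriptome differences were called and every alternative gave 30 to 35. Of changes between stages in the transcriptome 10 were called, 16 with the transcriptomes alone (CPEB2, CPEB3, PATL2 and CPSF1 gained) and 8 to 11 when 1 library was left out. Of changes in the pools 7 were called, 11 with the likelihood ratio test, 11 with DESeq2, 11 with F9 and F10, 3 with the pools alone and 6 to 12 when 1 library was left out (12 without 8-cell pool B). The 1 interaction became 2 without TMM, 2 without the filter and 4 with F9 and F10, and 1 to 7 when 1 library was left out (7 without 8-cell pool B). Without TMM and without the filter the gained interaction was that of PAPOLG from 2-cell to 8-cell. The 1 heavy against light call became 7 with the likelihood ratio test, 9 with DESeq2, 2 without TMM, 2 with F9 and F10, and 0 to 1 when 1 gradient was left out. The cause of these shifts was not tested.

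Some values that were called in the fit as reported or in an alternative changed sign. CPEB2 in the pools ranged from -7.14 to 3.16 from 2-cell to 8-cell and from -4.45 to 8.04 from 8-cell to morula, and its interaction at the former step from -8.80 to 1.49, when 1 library was left out, the extremes of opposite sign coming without 8-cell pool B and with only the 0 counts of pool A left. The PATL2 polysome to transcriptome difference was -4.21 in morulae and -4.82 in blastocysts with F9 and F10, and ranged from -6.38 to 1.58 and from -5.10 to 4.38 when 1 library was left out. That of CPSF1 in 8-cell embryos ranged from -0.29 to 3.29.

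Gradient and transcriptome letters were treated as shared labels and not as a pairing. The deviations of same-letter libraries correlated at -0.0652 to 0.00953 within a stage and at -0.154 to 0.114 between consecutive stages. Each value rests on a single difference per stage, so it cannot show whether same-letter libraries share a batch. With the letter as a replicate block the counts were 32, 10, 7 and 1, as without it. Without the gradient block the heavy against light calls were 2. Scaling moved the median of all genes by up to 0.47 (log2, MII to 2-cell transcriptome without TMM), and without TMM the share of GV to MII transcriptome calls that were higher was 14.3% in place of 38.7%.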
